A study of Homo sapiens with 6 samples.

Results

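The 9 genes described here encode the classical and non-classical heavy chains HLA-B, HLA-C, HLA-E, HLA-F and HLA-G, the light chain B2M, and the peptide transporter and loading proteins TAP1, TAP2 and TAPBP. They were chosen by symbol, 9 of the 35793 genes listed, and all 9 symbols were found. RNA was measured in cardiomyocytes differentiated from WTC11, an established human induced pluripotent stem cell line, and harvested on day 15. The wild-type group held 3 libraries of unedited WTC11 cells. The STK25 knockout group held 3 libraries of a WTC11 derivative made homozygous for a CRISPR/Cas9 knockout of STK25, a kinase gene. The libraries are labelled as biological replicates, but the knockout is 1 line, so the edit and any other difference between the lines cannot be told apart. Neither group was treated.

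Class I molecules carry peptides cut from the cell's own proteins to the cell surface, where CD8 T cells and natural killer cells inspect them. A heavy chain folds with B2M in the endoplasmic reticulum, TAP1 and TAP2 form the transporter that brings peptides in, and tapasin, the product of TAPBP, holds the empty heavy chain next to that transporter while peptides are exchanged. Cardiomyocytes normally show little class I, and interferons raise nearly every gene of this pathway through factors such as IRF1 and NLRC5.

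The upstream sequences of 6 members are printed here, because B2M, HLA-B, HLA-C and HLA-F were highest in the same library of each genotype, TAP1 was lowest there, and TAPBP was the member that differed between genotypes. Each is the 250 bases before the RefSeq start site on GRCh38.p14, read 5′ to 3′ on the gene's strand. It is the reference sequence and not that of the cell line. TAP1 has 2 such entries, and the sequence of entry 1 is printed. Capitals mark matches on either strand to TTTC, any 2 bases and TTTC (an interferon response element), to GGGNNTTCC (a kappaB-like site) or to CCAAT (the box bound by NF-Y). Matches that overlap run together as 1 stretch of capitals.
B2M, chr15:44711267-44711516, plus strand: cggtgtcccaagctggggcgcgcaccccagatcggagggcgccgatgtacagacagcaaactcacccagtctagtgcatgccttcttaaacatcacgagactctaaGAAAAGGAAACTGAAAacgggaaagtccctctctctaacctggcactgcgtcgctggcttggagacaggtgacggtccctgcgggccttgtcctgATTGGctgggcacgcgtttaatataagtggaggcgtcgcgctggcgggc
HLA-B, chr6:31357180-31357429, minus strand: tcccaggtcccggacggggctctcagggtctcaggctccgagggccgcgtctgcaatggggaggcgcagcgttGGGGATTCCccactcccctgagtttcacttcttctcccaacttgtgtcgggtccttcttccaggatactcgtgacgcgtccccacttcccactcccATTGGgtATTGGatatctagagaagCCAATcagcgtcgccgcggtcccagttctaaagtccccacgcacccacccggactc
HLA-C, chr6:31272093-31272342, minus strand: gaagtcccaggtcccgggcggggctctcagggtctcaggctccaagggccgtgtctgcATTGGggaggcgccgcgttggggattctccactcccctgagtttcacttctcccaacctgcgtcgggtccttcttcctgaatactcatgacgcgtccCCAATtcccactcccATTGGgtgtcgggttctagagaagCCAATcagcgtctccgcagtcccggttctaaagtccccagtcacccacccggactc
HLA-F, chr6:29723184-29723433, plus strand: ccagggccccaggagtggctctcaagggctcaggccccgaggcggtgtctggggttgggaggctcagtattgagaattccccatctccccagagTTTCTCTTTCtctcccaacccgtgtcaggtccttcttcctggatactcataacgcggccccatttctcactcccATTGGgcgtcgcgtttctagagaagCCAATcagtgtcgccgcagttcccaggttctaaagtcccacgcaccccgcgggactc
TAP1, chr6:32853705-32853954, minus strand: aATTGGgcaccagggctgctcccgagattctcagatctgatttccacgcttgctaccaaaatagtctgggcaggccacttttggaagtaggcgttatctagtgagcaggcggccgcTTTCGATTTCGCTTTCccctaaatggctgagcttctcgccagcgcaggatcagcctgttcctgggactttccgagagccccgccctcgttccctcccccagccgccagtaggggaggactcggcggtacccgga
TAPBP, chr6:33314079-33314328, minus strand: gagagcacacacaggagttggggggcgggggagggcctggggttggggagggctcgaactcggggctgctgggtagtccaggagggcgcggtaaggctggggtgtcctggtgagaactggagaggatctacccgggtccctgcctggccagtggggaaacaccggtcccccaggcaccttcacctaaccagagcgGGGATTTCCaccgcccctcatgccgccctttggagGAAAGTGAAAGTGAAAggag

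The interferon response element was matched upstream of 5 of the 8 members with an entry, namely HLA-F, B2M, TAP1, TAP2 and TAPBP. It was found in 3.02% of the 35116 promoters of that length. CCAAT was matched in 6 members (HLA-B, HLA-C, HLA-F, HLA-G, B2M and TAP1), against 32.0% of all promoters. HLA-G has 3 entries and TAP1 has 2, and a member counted if any entry matched, whereas the background shares are per promoter. For HLA-G, CCAAT was matched in entry 3 only. For TAP1, CCAAT and the interferon response element were matched in entry 1 only. The kappaB-like letters GGGNNTTCC were matched in HLA-B and TAPBP, against 5.78%. Sites with other letters or spacing were not searched, so a missing match does not show that a kappaB-like site is absent. A match describes these letters and is not a measured binding site. HLA-E is the member without an entry.

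The libraries held from 22443904 to 53224112 reads assigned to genes, and 15536 genes with a mean of at least 10 normalized counts were tested with limma. STK25 itself fell to 45.8% of its wild-type mean (log2 fold change -1.12, limma adjusted p = 0.00903). Without wild-type replicate 1 its adjusted p was 0.0611. Of the genes tested, 927 were higher and 1055 lower in the knockout, and with libraries scaled to equal totals 546 were higher and 1466 lower. That scaling shifted the all-gene median (log2) from 0.0052 to -0.28. On the second principal component, with 24.1% of the variance, wild-type replicate 2 and knockout replicate 1 stood apart from the other 4 libraries. Results that rest on these libraries are given with and without them. Cardiomyocyte markers were high in both genotypes. They summed to 793191 to 851461 normalized counts in the wild type and 894419 to 924958 in the knockout. Of these 8 genes 2, NKX2-5 and PLN, were lower by limma, where 12.8% of all genes were called. edgeR called 3 of the 8 and DESeq2 5, against 12% and 20.7% of all genes. Of the 8 log2 fold changes, 3 were positive and 5 negative. MYH6 fell to 43.6% of its wild-type mean, while MYH7 stood at 2.51-fold and ACTN2 at 2.23-fold. DESeq2 called each of them (adjusted p = 0.000985, 0.00598 and 0.0138).

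B2M was by far the most abundant of the 9 transcripts in both genotypes, and HLA-G was not detected. Per kilobase of transcript, B2M stood at 11897 ± 4501 normalized counts in the wild type and 10597 ± 4065 in the knockout (SD, n = 3 each). TAPBP followed in the wild type with 656 ± 148, then HLA-C with 583 ± 129, HLA-B with 208 ± 114, TAP1 with 161 ± 27.6 and HLA-E with 133 ± 34.9 normalized counts per kilobase (SD, n = 3 each). HLA-F had 22.0 ± 11.7 and TAP2 6.33 ± 5.29 on the same scale (SD, n = 3 each). TAPBP and HLA-C overlapped in their wild-type values, as did HLA-B with TAP1 and TAP1 with HLA-E, so the order within these pairs is not fixed. HLA-E lay above HLA-F and HLA-F above TAP2 in every wild-type library. In the knockout HLA-C, at 503 ± 121, came before TAPBP, at 307 ± 92.2 normalized counts per kilobase (SD, n = 3 each), although the values still overlapped, as they did from TAPBP down to HLA-E in neighbouring pairs. HLA-G, the heavy chain known from trophoblast, had 0 reads in all 6 libraries, which allows at most 3 reads, or from 1.91 to 4.53 normalized counts per library, for counting error only. Whether alternative MHC haplotypes were among the transcripts that reads were assigned to is not given in the sources used here, and this bears on the 0 as on the split between heavy chains. HLA-G could not be tested, which left 8 members.

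**Figure D1:**
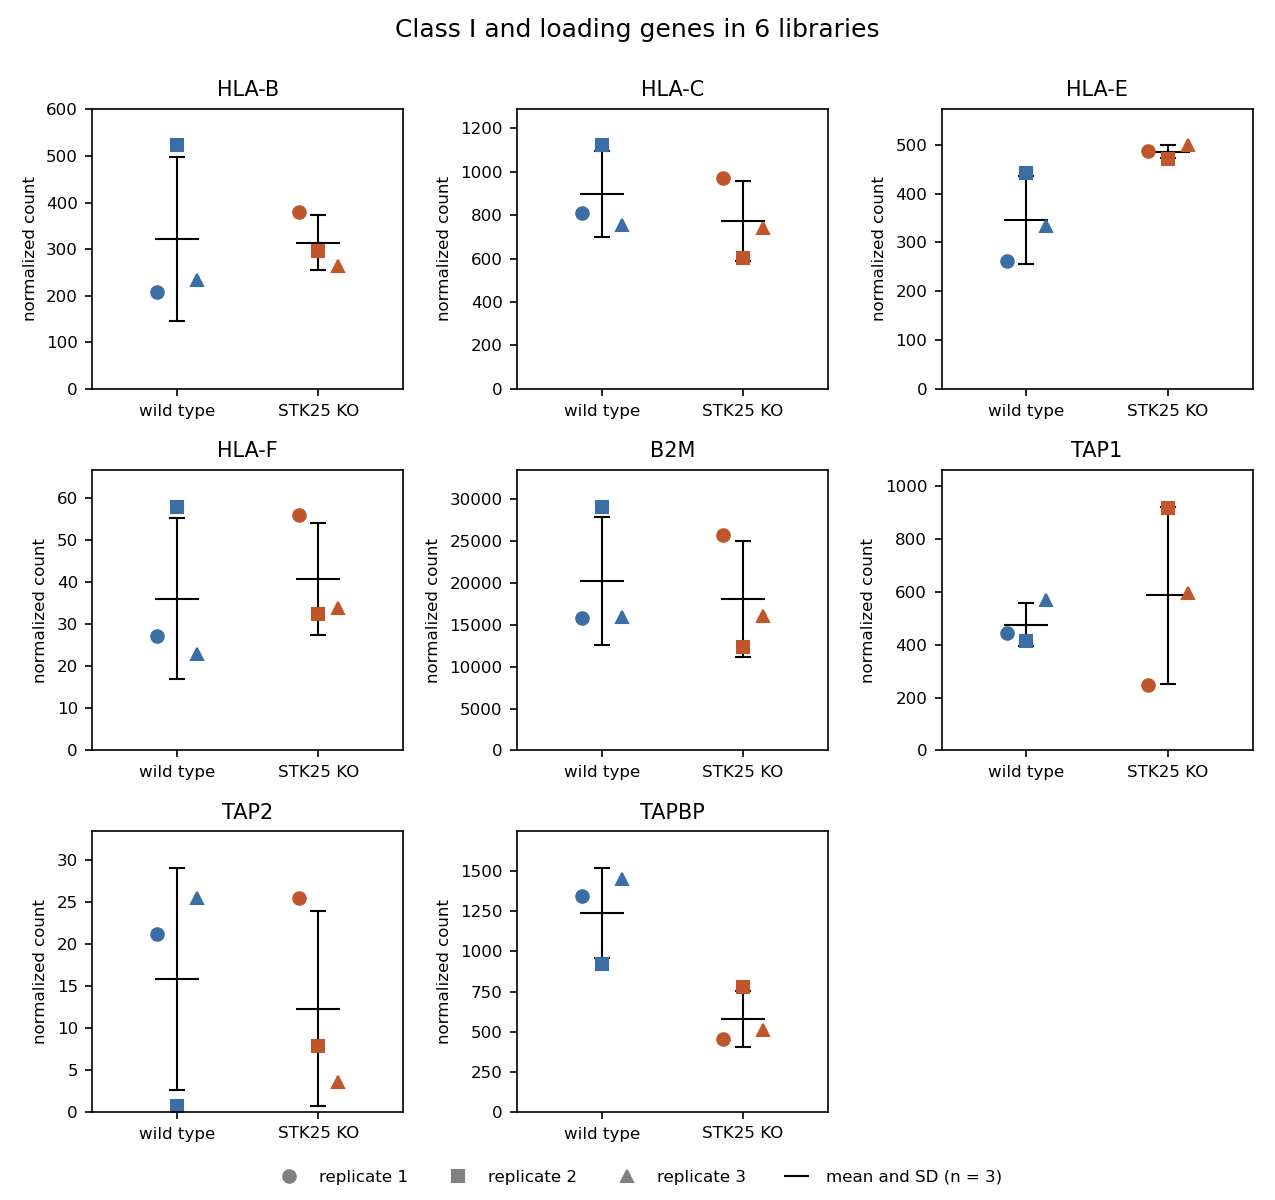
Normalized count of 8 members (vertical axes, each from 0) in wild-type and STK25 knockout libraries. Each symbol is 1 library, and the bars are the mean and SD of 3. TAPBP lies lower and HLA-E higher in all 3 knockout libraries, and replicate 2 of the wild type and replicate 1 of the knockout are the highest of their genotype for B2M, HLA-B, HLA-C and HLA-F.

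Of the 8 members tested, 1 differed between genotypes. TAPBP was lower in the knockout, and the other 7 did not pass the test. Over all genes 12.8% were called, so 1 of 8 is close to the background and is no result about the group. edgeR and DESeq2, run on the recovered reads, each called TAPBP alone among the members, against 12% and 20.7% of all genes. At an unadjusted limma p under 0.05 the count was also 1 of 8, against 27.5% of all genes. The median log2 fold change of the 8 was 0.05, beside 0.0052 for all genes tested. The genotypes did not overlap for 2 members, HLA-E and TAPBP, where 33.4% of all genes tested had separate groups, 16.2% with the knockout higher and 17.2% with it lower.

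TAPBP is encoded on chromosome 6 (33299694 to 33314387, minus strand, GENCODE 29 on GRCh38). It reached 1344, 922 and 1451 normalized counts in the wild type, and 451, 778 and 510 in the knockout. All knockout values lay under the lowest wild-type value. The mean fell from 1239 ± 280 to 580 ± 174 normalized counts (SD, n = 3 each), to 46.8% of the wild type, with a log2 fold change of -1.11 (SE 0.29, limma adjusted p = 0.0446). For TAPBP alone, the exact permutation test (two-sided) gave p = 0.1, and 3 libraries a group cannot give a lower one. The adjusted p was 0.0474 with edgeR's quasi-likelihood test and 0.00544 with DESeq2. The call was lost without wild-type replicate 1 (adjusted p = 0.170), wild-type replicate 3 (0.155), knockout replicate 1 (0.0772) or knockout replicate 3 (0.148). Without both wild-type replicate 2 and knockout replicate 1 the log2 fold change was -1.15 (limma adjusted p = 0.00298). Relative to TAP1, to whose product tapasin binds, TAPBP stood at 3.02, 2.23 and 2.56 in the wild type and 1.82, 0.847 and 0.858 in the knockout, a ratio of counts that the scaling between libraries does not touch (exact permutation p = 0.1).

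TAPBPL, a relative of tapasin that edits peptides without the transporter, had 156, 120 and 104 normalized counts in the wild type and 1.27, 63.5 and 32.9 in the knockout. The genotypes did not overlap for TAPBPL, but its log2 fold change of -2.88 (SE 1.13, limma adjusted p = 0.146) did not pass.

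In bulk RNA, fewer cells of a type and less RNA per cell cannot be told apart. Markers of other cells also differed between the genotypes, and their counts stand against 12.8% of all genes called. Summed fibroblast and stromal markers were 12924 to 26543 normalized counts in the wild type, against 7871 to 16397 in the knockout. By limma 3 of 8 genes were higher and 1 lower. COL1A1 (means 10227 and 4792) and COL1A2 (7514 and 240) made up most of the wild-type sum. Of the 8 log2 fold changes, 5 were positive and 3 negative, so the sum does not give the direction of most genes. Smooth muscle and pericyte markers ran from 24991 to 30054 and from 48782 to 59803, with 2 of 5 higher, and epicardial markers from 103 to 219 and from 912 to 1091, with 2 of 5 higher. Neural markers ran from 52.9 to 128 and from 483 to 818, with 3 of 5 tested higher. Pluripotent markers ran from 891 to 1456 and from 2794 to 4339, with 1 of 5 tested higher. That gene, TDGF1, had means of 560 and 3516 and made up most of the knockout sum. DNMT3B (means 441 and 74.7) and ZFP42 (47.6 and 11.3) lay lower with separate groups. Both missed the limma threshold (adjusted p = 0.0835 and 0.0884) but were called by DESeq2 (0.00904 and 0.0260). Of the 5 tested, 3 log2 fold changes were positive and 2 negative. Endoderm and liver markers ran from 1659 to 3003 and from 1191 to 1248, with 1 of 3 tested lower. That gene, AFP, had means of 104 and 2.03. APOA1, with means of 2026 and 1195 (limma adjusted p = 0.136), made up most of both sums. The part of these other cells in the fall of TAPBP was not tested.

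HLA-E, the non-classical heavy chain that natural killer cells read through NKG2A, was the other member with separate groups. It is on chromosome 6 (30489467 to 30494205, plus strand). It reached 261, 442 and 334 normalized counts in the wild type, and 487, 471 and 499 in the knockout. All knockout values were above the highest wild-type value and they spanned a narrow range. The log2 fold change of 0.52 (SE 0.26, 95% interval -0.09 to 1.13) had a limma adjusted p of 0.250 and did not pass. Without the pair of libraries that stood apart it was 0.71 (limma adjusted p = 0.0503), and with equal totals it was 0.24.

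HLA-C, which natural killer cells read through KIR receptors, had 810, 1122 and 756 normalized counts in the wild type and 971, 604 and 742 in the knockout. Its log2 fold change was -0.22 (95% interval -0.83 to 0.39, limma adjusted p = 0.657), and the groups overlapped. HLA-B, the most variable of the classical heavy chains between people, had 207, 523 and 233 normalized counts in the wild type and 379, 296 and 265 in the knockout, so that the wild-type group enclosed the knockout group. The log2 fold change of HLA-B was 0.08 (95% interval -0.83 to 0.99, limma adjusted p = 0.928) and its sign turned with the setting, for example to -0.20 with equal totals. HLA-F, a non-classical heavy chain, rested on 18 to 76 reads per library. It had 27.2, 57.9 and 23.0 normalized counts in the wild type and 55.9, 32.3 and 33.8 in the knockout, with a log2 fold change of 0.24 (95% interval -0.98 to 1.47, limma adjusted p = 0.822) that also turned with equal totals, to -0.03. These intervals reach close to a doubling or beyond, so changes of that size in HLA-B and HLA-F were not excluded here. The heavy chains resemble each other and differ between people, and HLA-B and HLA-C overlap in GENCODE 29, so reads between them may have been split in error.

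B2M, on chromosome 15 (44711487 to 44718877, plus strand), is the light chain of every class I molecule. It had 15814, 29145 and 15892 normalized counts in the wild type and 25771, 12337 and 16096 in the knockout. Each genotype held 1 library far above its other 2, and the groups overlapped. The log2 fold change was -0.17 (95% interval -0.99 to 0.64, limma adjusted p = 0.808). It turned positive without wild-type replicate 2 (0.12) or knockout replicate 2 (0.069).

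TAP1 and TAP2, the subunits of the peptide transporter, were present at unequal levels. TAP1 had 446, 413 and 568 normalized counts in the wild type and 248, 918 and 595 in the knockout. The knockout libraries spread over a wider range than the wild-type libraries and enclosed them. The log2 fold change of TAP1 was 0.12 (95% interval -0.94 to 1.18, limma adjusted p = 0.900), which was -0.29 without knockout replicate 2 and 0.65 without knockout replicate 1. TAP2 was near the limit of detection, with 14, 1 and 40 reads in the wild type and 20, 7 and 4 in the knockout. Its interval ran from -2.82 to 2.84 on the log2 scale (limma adjusted p = 0.997), so a difference within those bounds was not excluded. Wild-type replicates 2 and 3, with 51321607 and 53224112 reads in all, had 1 and 40 reads of TAP2. PSMB9 lies across TAP1 on the opposite strand in GENCODE 29, and no strand setting is given in the sources used here, so reads of these genes may not have been separated.

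**Figure D2:**
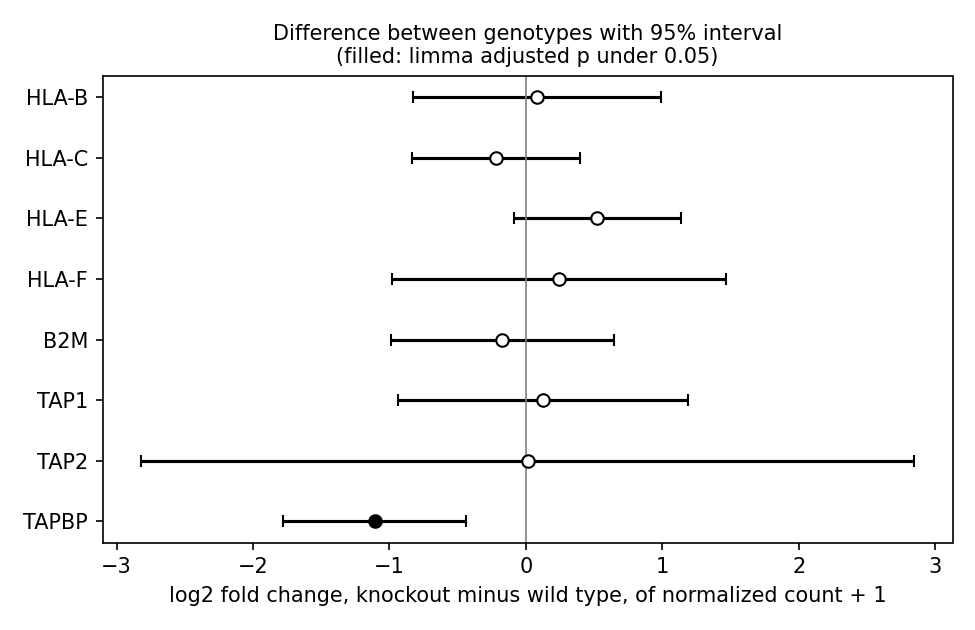
Log2 fold change of normalized count + 1, knockout minus wild type (horizontal axis), with the 95% interval of limma's moderated fit, for 8 members. Filled points have an adjusted p under 0.05. TAPBP at -1.11 is the filled member, the other 7 intervals include 0, and the TAP2 interval is the widest.

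Because heavy chains can exchange reads, they were also summed. The sum of HLA-B to HLA-G was 1305, 2145 and 1346 normalized counts in the wild type and 1893, 1404 and 1539 in the knockout. The groups overlapped, and the log2 difference of 0.04 had an exact two-sided permutation p of 0.8. Relative to B2M this sum was 8.25%, 7.36% and 8.47% in the wild type and 7.34%, 11.4% and 9.56% in the knockout (exact permutation p = 0.4).

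The make-up of these counts does not depend on the scaling between libraries. HLA-E held 20.0%, 20.6% and 24.8% of HLA-B to HLA-G counts in the wild type and 25.7%, 33.6% and 32.4% in the knockout, and HLA-C held 62.0%, 52.3% and 56.2% and then 51.3%, 43.0% and 48.2%. Both shares were separate between genotypes, HLA-E higher and HLA-C lower in the knockout, and each exact two-sided permutation test gave p = 0.1, the smallest p possible. Shares add up to a whole, so they are not independent of each other. HLA-B held 15.9%, 24.4% and 17.3% in the wild type and 20.0%, 21.1% and 17.2% in the knockout, which overlapped (exact permutation p = 0.9). HLA-F held 1.71% to 2.70% in wild-type libraries, against 2.19% to 2.96% in knockout libraries (exact permutation p = 0.4). The ratio of HLA-E to HLA-C was 0.323, 0.394 and 0.442 in the wild type and 0.501, 0.780 and 0.672 in the knockout (exact permutation p = 0.1). These shares and ratios were chosen after the values were seen.

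**Figure D3:**
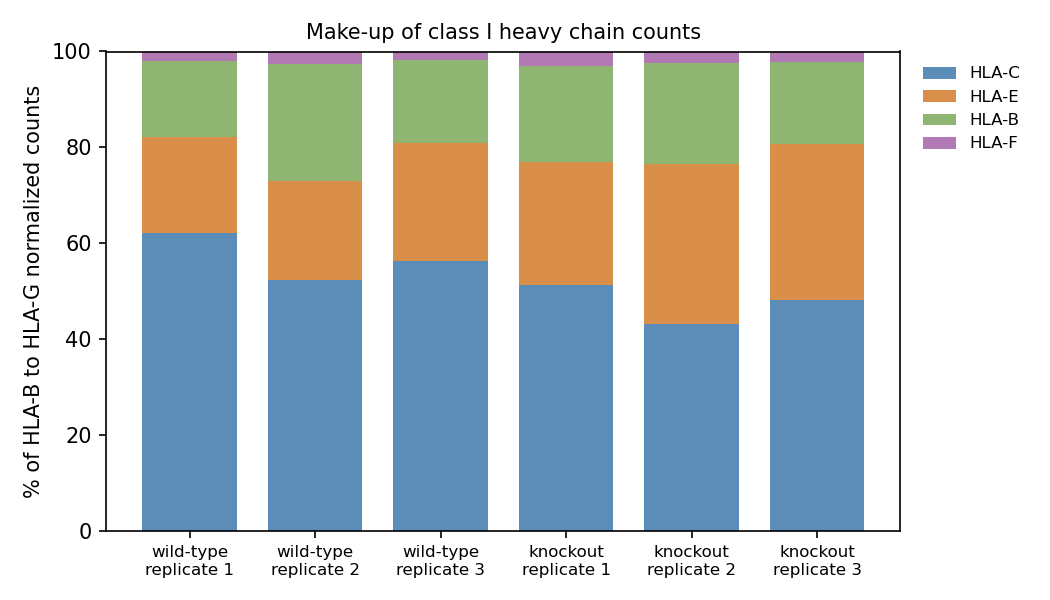
Share of each heavy chain in the normalized counts of HLA-B to HLA-G (vertical axis, percent) in the 6 libraries, 1 stacked bar each. HLA-E takes 20.0% to 24.8% in the wild type and 25.7% to 33.6% in the knockout, and HLA-G has no read.

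In each genotype 1 library was high for B2M, HLA-B, HLA-C and HLA-F and low for TAP1 and TAPBP. Wild-type replicate 2 was above the mean of replicates 1 and 3 by 2.38-fold for HLA-B, 2.31-fold for HLA-F, 1.84-fold for B2M, 1.48-fold for HLA-E and 1.43-fold for HLA-C. Knockout replicate 1 was above the mean of its replicates 2 and 3 by 1.81-fold for B2M, 1.69-fold for HLA-F, 1.44-fold for HLA-C and 1.35-fold for HLA-B, while HLA-E stood at 1.00-fold. The same libraries were low for TAP1, at 0.815-fold and 0.328-fold, and for TAPBP, at 0.659-fold and 0.701-fold. TAP2 moved from 1 read in wild-type replicate 2 to 4.48-fold in knockout replicate 1.

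**Figure D4:**
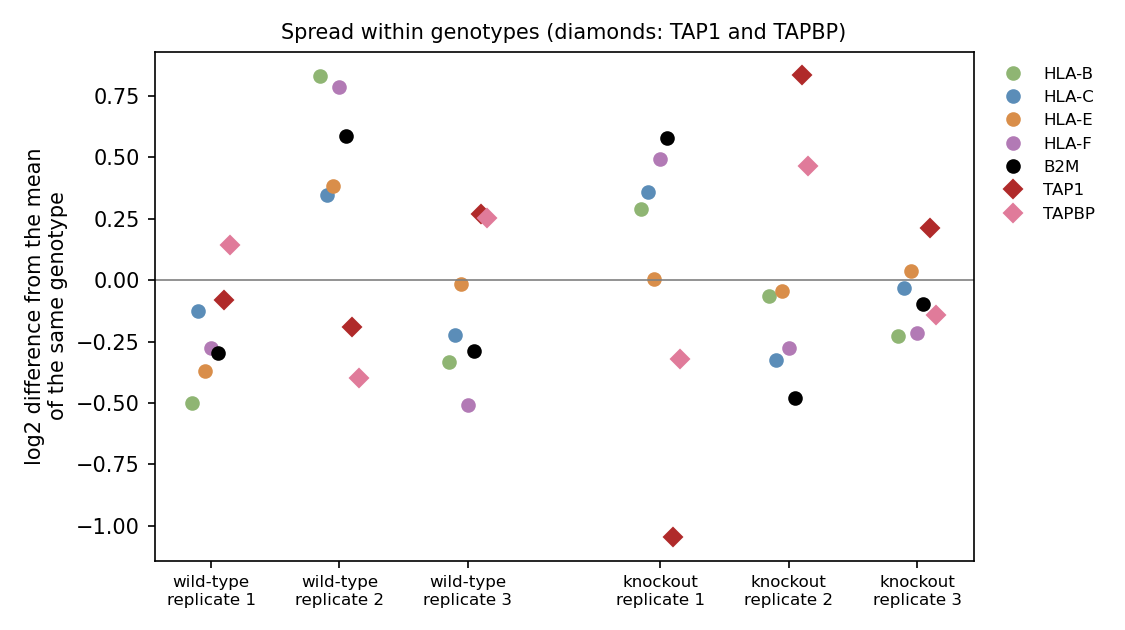
Log2 difference of each library from the mean of its own genotype (vertical axis) for HLA-B, HLA-C, HLA-E, HLA-F and B2M (circles) and TAP1 and TAPBP (diamonds). The circles lie above 0 in wild-type replicate 2 and at or above 0 in knockout replicate 1, where the diamonds lie under 0. TAP2 is left out for its low reads.

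Transcript length moved with this pattern. Over 15174 genes with a GENCODE 29 length, the log2 difference of wild-type replicate 2 from its replicates fell with length (Spearman rho -0.398 across genes, which are not replicates and share these libraries), as did that of knockout replicate 1 (rho -0.248). Transcripts of 1 to 2 kb, the class of HLA-B, HLA-C, HLA-F, B2M and TAPBP, had median log2 differences of 0.40 and 0.35 in these libraries, beside 0.88 and 0.87 for B2M. TAPBP, in the same class at 1.89 kb, went the other way with -0.60 and -0.48. Transcripts of 2 to 4 kb, the class of TAP1, TAP2 and HLA-E, had medians of -0.12 and -0.24. TAP1 had -0.28 and -1.57, HLA-E 0.58 and 0.0060, and TAP2, with few reads, -3.78 and 2.06. The immune markers PTPRC, CD68, CD14, AIF1, CD3E, CSF1R and LYZ summed to 1500 and 1490 normalized counts in these libraries. Their sum in the other 4 was 402 to 1131. LYZ alone held 913 and 896 of the counts in these libraries. PTPRC, CD68, CD14 and LYZ were each highest of their genotype there. CSF1R was too, though narrowly in knockout replicate 1 (39.4, against 37.3 in knockout replicate 3). AIF1 was not highest in knockout replicate 1 (231, against 262 in knockout replicate 2). Of the 6 tested, 0 were called between genotypes by limma, edgeR or DESeq2, where limma called 12.8% of all genes. All 6 log2 fold changes were positive, with a median of 0.58, so a difference in these markers was not excluded. CD3E, which defines T cells, had at most 4.53 normalized counts. Endothelial markers summed to 1261 to 1382 in the wild type and 1363 to 2139 in the knockout, with 0 of 4 tested called, CDH5 at 1.11 or less and VWF at 0 in 5 of 6 libraries. The part of length and of these cells in the pattern was not tested.

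The genes most like B2M over the 6 libraries, among 13030 others with a mean of at least 50, were FKBP1B, RBX1, PSME2, SAP30 and DBNDD2. Their Pearson correlations with B2M on the log2 scale ran from 0.995 to 0.997 and their Spearman correlations from 0.771 to 0.943. Leaving out wild-type replicate 2 and knockout replicate 1, the libraries farthest from the median, gave r from 0.968 to 0.996 over 4 libraries. These genes were picked for the highest r and share the libraries, so the values are a description without a test. Among members r was 0.973 for HLA-C, 0.843 for HLA-F, 0.797 for HLA-B, 0.251 for HLA-E, -0.277 for TAPBP, -0.314 for TAP2 and -0.819 for TAP1. Without the same libraries HLA-B and HLA-F turned to -0.726 and -0.405, so their likeness to B2M rests on those libraries, and HLA-C stayed at 0.939.

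The rest of the pathway was followed through lists of genes. Among 10 genes for peptide generation and trimming 0 passed by limma or edgeR (2 at an unadjusted limma p under 0.05, and 1, ERAP1, by DESeq2), and the median log2 fold change was -0.31. The immunoproteasome subunits, which interferon swaps into the proteasome, were uneven: PSMB8 had a mean of 34.5 ± 4.32 normalized counts in the wild type and 22.2 ± 4.97 in the knockout, PSMB9 219 ± 85.9 and 121 ± 28.5, and PSMB10 1819 ± 732 and 2842 ± 1747 (SD, n = 3 each). None passed, with limma adjusted p-values of 0.440, 0.210 and 0.486. ERAP1, the aminopeptidase that trims peptides to length, had 405, 176 and 385 normalized counts in the wild type and 155, 74.7 and 124 in the knockout. Its groups were separate, with a log2 fold change of -1.41 (SE 0.44, limma adjusted p = 0.0769, DESeq2 adjusted p = 0.0118). ERAP2, its partner, had 20.5 ± 2.11 and 24.6 ± 13.3 normalized counts (SD, n = 3 each, limma adjusted p = 0.925). The 5 constitutive proteasome counterparts had a median of 0.40 and none was called (0 at an unadjusted limma p under 0.05, and 0 by edgeR or DESeq2).

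Of the 6 peptide loading chaperones 0 passed by limma, edgeR or DESeq2 (1 at an unadjusted limma p under 0.05), with a median of 0.13. CALR and CANX, the lectins that hold new heavy chains, and PDIA3, the disulfide partner of tapasin, had differences of 0.09, 0.59 and 0.16 on the log2 scale, none past the threshold (limma adjusted p = 0.807, 0.458 and 0.669). Among 8 tested class I-like genes 0 passed by limma, with 2 at an unadjusted p under 0.05, 0 by edgeR, 1 by DESeq2 and a median of -0.42. MICA, a stress ligand of the receptor NKG2D encoded near HLA-B, had 794, 999 and 595 normalized counts in the wild type and 1361, 1314 and 1519 in the knockout. It was higher in all 3 knockout libraries, with a log2 fold change of 0.84 (SE 0.24, limma adjusted p = 0.0592, DESeq2 adjusted p = 0.0184).

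Transcription factors of class I genes showed 1 call among 12 tested, where 12.8% of all genes were called, with a median of 0.08. edgeR called 0 and DESeq2 3 of them. IRF1, an interferon-responsive activator of class I genes, had 125, 185 and 107 normalized counts in the wild type and 48.3, 62.4 and 38.2 in the knockout. It fell by 1.46 on the log2 scale (SE 0.39, limma adjusted p = 0.0479), but edgeR gave an adjusted p of 0.0572, and leaving out any 1 library lost the call (adjusted p from 0.0624 to 0.146), as did 13 of 19 alternatives in all. NLRC5, the class I transactivator, had 4 to 13 reads per library and was too low to test. Of 11 interferon receptor and signalling genes 0 passed by limma or edgeR, with 3 at an unadjusted limma p under 0.05 and 1 by DESeq2, and the median was -0.41.

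Of 16 interferon-induced genes tested, 3 were lower and 0 higher in the knockout, where 6.79% of all genes were called lower and 5.97% higher. The median log2 fold change was -0.41, with 10 of the 16 negative and 6 positive. edgeR called 3 and DESeq2 5 of the 16, against 12% and 20.7% of all genes. The genotypes did not overlap for 6 genes lower and 1 higher in the knockout, against 17.2% and 16.2% of all genes. UBE2L6, the enzyme that attaches ISG15 to proteins, had 3031, 4099 and 3211 normalized counts in the wild type and 628, 392 and 598 in the knockout. It fell by 2.69 on the log2 scale (SE 0.25, limma adjusted p = 0.000765), to 15.6% of the wild type. IFI35 fell by 2.25 (SE 0.43, limma adjusted p = 0.0143), which was at an adjusted p of 0.0596 without knockout replicate 3, and IFI6 by 1.88 (SE 0.32, limma adjusted p = 0.00911). Not all of the list moved this way: ISG15 had a mean of 24.7 ± 9.09 normalized counts in the wild type and 64.7 ± 36.6 in the knockout, and GBP2 42.7 ± 19.4 and 91.0 ± 42.4 (SD, n = 3 each), with limma adjusted p-values of 0.185 and 0.275.

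Class II genes, which present peptides from outside the cell and are normally kept to antigen-presenting cells, had 1 gene higher and 1 lower among 10 tested, with a median of 0.19. The share called over all genes was 12.8%, and edgeR called 1 and DESeq2 3 of the 10. CD74, the invariant chain that guards the class II groove, had 1032, 1731 and 1155 normalized counts in the wild type and 474, 416 and 265 in the knockout (log2 fold change -1.77, SE 0.31, limma adjusted p = 0.0105). HLA-DPB1, a class II beta chain, moved the opposite way. It had 337, 597 and 283 normalized counts in the wild type and 1363, 791 and 823 in the knockout, and rose by 1.32 on the log2 scale (limma adjusted p = 0.0486). That call was lost with edgeR (adjusted p = 0.0582) and in 5 of the 6 fits that left out 1 library, with adjusted p-values from 0.0768 to 0.171. Only the fit without wild-type replicate 2 among those 6 kept it (0.0252), and 14 of 19 alternatives in all lost it.

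Since 8 of the 9 members lie in the MHC region of chromosome 6, 30 other genes of that region were compared. Of these 2 were higher and 0 lower by limma, where 12.8% of all genes were called, edgeR called 1 and DESeq2 5, and the median log2 fold change was 0.15. HSPA1B, an inducible heat shock protein whose reads may be shared with HSPA1A, had 2238 ± 315 normalized counts in the wild type and 6319 ± 369 in the knockout (SD, n = 3 each), a rise at a limma adjusted p of 0.00241. MRPS18B, a mitochondrial ribosome protein, rose by 0.83 on the log2 scale (limma adjusted p = 0.0414), and of the fits that left out 1 library only that without wild-type replicate 2 kept the call (adjusted p from 0.0401 to 0.182 over the 6). It was also lost with edgeR (adjusted p = 0.0505), and in 12 of 19 alternatives in all. RGL2 and ZBTB22, listed for the stretch around TAPBP, differed by 0.23 and -0.73 on the log2 scale and did not pass (limma adjusted p = 0.493 and 0.115). Both had separate groups, as did 33.4% of all genes tested. DESeq2 called ZBTB22 (adjusted p = 0.0441), and edgeR did not (0.103). Trophoblast markers, compared because of HLA-G, summed to 178 to 406 normalized counts in the wild type and 160 to 198 in the knockout, with 0 of 4 tested called by limma (1 at an unadjusted p under 0.05) and 1, KRT7, called lower by edgeR (adjusted p = 0.0499) and DESeq2 (adjusted p = 0.0119).

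**Figure D5:**
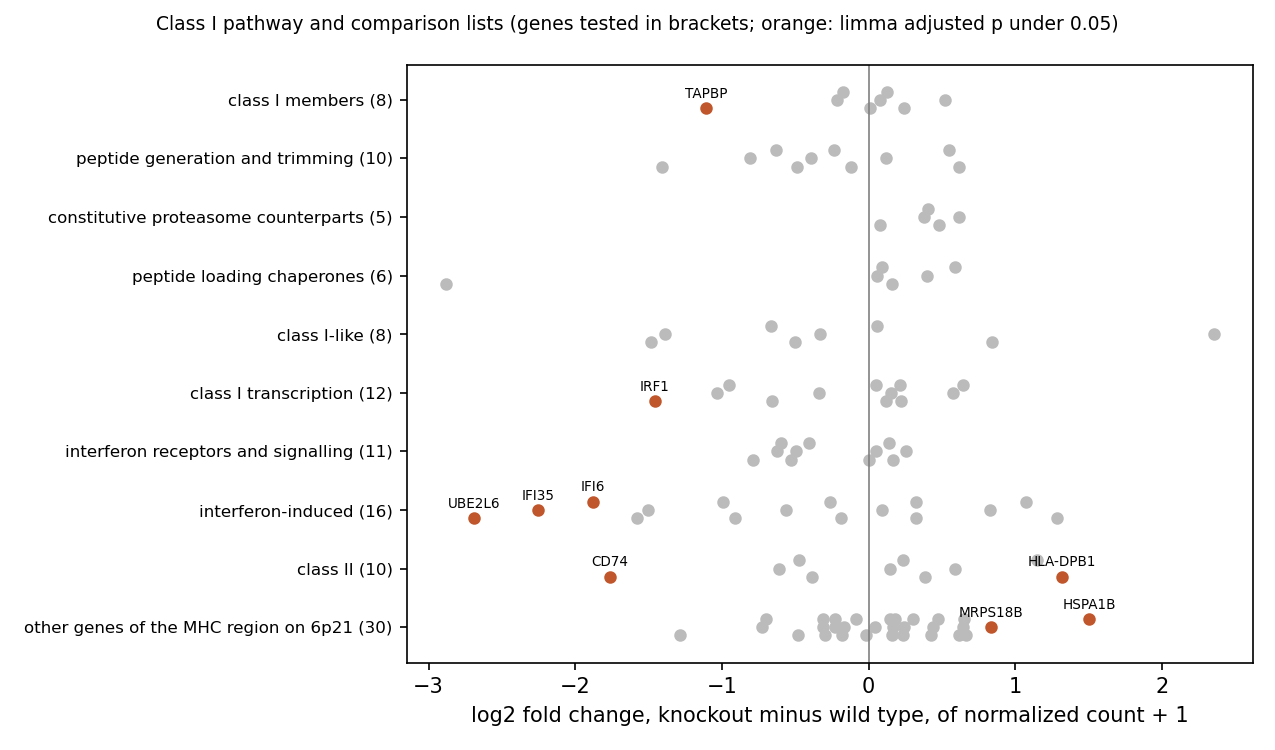
Log2 fold change of normalized count + 1, knockout minus wild type (horizontal axis), for each tested gene of the class I members and 9 related lists, 1 point a gene, spread vertically for legibility. Orange points, named, have a limma adjusted p under 0.05. TAPBP, IRF1, CD74 and 3 interferon-induced genes lie on the lower side, and HLA-DPB1, HSPA1B and MRPS18B on the higher side.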

How the data were processed

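RNA from 3 wild-type and 3 STK25 knockout cardiomyocyte cultures was measured by RNA-seq. Per the labels' protocols, a low-input Clontech cDNA kit was followed by NexteraXT library preparation. The submitters' processing notes name bcl2fastq 2.19, kallisto 0.44.0, DESeq2 1.28.1 and GRCh38, without roles. The annotation and the strand setting are not given in the sources used here. The deposited values are a signal the authors call normalized counts. Of these, 100% were whole multiples (tolerance 1e-06) of 1 step per library, so whole numbers, called reads here, could be recovered. Whether they were counted, or were estimates rounded before scaling, is not given in the sources used here.

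limma 3.58.1 (R 4.3.3) was fitted with lmFit and eBayes with a trend on log2(value + 1) after removing genes with a mean under 10, with Benjamini-Hochberg adjustment over 15536 genes and a threshold of 0.05. Adding 1 understates changes of low genes. The recovered reads were tested with edgeR 4.0.16 (quasi-likelihood) and DESeq2 1.42.0. Single sums and ratios were compared by exact permutation. Named genes are the 9 members, STK25, fixed pathway genes, list members past the threshold (at most 4 a list) and the 5 genes most like B2M. MICA, ISG15, GBP2, RGL2, ZBTB22 and the cell markers fall outside that rule and were named after their values were seen. The members and lists were chosen with earlier results of these data known. No 2 replicates of a genotype agreed within counting noise (chi-square over its degrees of freedom 20.1 or more). Lengths are those of the longest principal transcript in GENCODE 29. The tests were tested on simulated data. Plots used matplotlib 3.10.9 under Python 3.11.15. Alternatives covered the pseudocount, the filter, the scaling, the variance prior, the replicate block, each library left out, edgeR and DESeq2; leaving out both libraries that stood apart was chosen after seeing the data. Some items are not reported here.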

Additional observations from a re-analysis of the deposited data

How the results depend on the processing

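The number of members past the threshold was 1 in 12 of 19 alternatives and 0 with no filter, with the replicate block, with eBayes without a trend and in 4 of the 6 fits that left out 1 library (range 0 to 1). The calls of the related lists, 8 in all, were 5 with no filter, 14 with equal totals, 5 with the replicate block, 5 with edgeR, 19 with DESeq2, 35 without both wild-type replicate 2 and knockout replicate 1, and 4 to 11 when 1 library was left out. Over all genes the 1982 calls became 798 with the replicate block, 3210 with DESeq2, 4706 without both those libraries and 792 to 2192 with 1 library left out. Pairing by replicate number was not apparent: deviations of same-numbered libraries correlated at -0.235, -0.400 and 0.169, and not every library correlated best with its own number. The highest correlation, 0.448, was between wild-type replicate 2 and knockout replicate 1, the libraries that stood apart. Such libraries weigh heavily on these values, which therefore cannot decide whether the numbers mark pairs. With the block TAPBP had an adjusted p of 0.150 and STK25 of 0.0684. The summed heavy chains (log2 difference 0.04) turned to -0.0081 with equal upper quartiles, -0.24 with equal totals and -0.14 for HLA-B and HLA-C only, and ran from -0.087 to 0.27 with 1 library left out; the paired differences gave 0.04. The ratio to B2M (0.21) was 0.028 for HLA-B and HLA-C only and ran from 0.065 to 0.38 with 1 library left out. Among single members without a call, TAP2 turned to -0.16 with a pseudocount of 10, -0.013 with equal upper quartiles, -0.25 with equal totals, -1.94 without both libraries, -0.39 with edgeR and -0.36 with DESeq2, and ran from -1.25 to 0.71 with 1 library left out. HLA-B turned to -0.20 with equal totals, -0.050 with edgeR and -0.037 with DESeq2 (-0.17 to 0.50 with 1 library left out). HLA-F turned to -0.030 and TAP1 to -0.16 with equal totals (-0.012 to 0.64 and -0.29 to 0.65 with 1 library left out), and B2M was -0.50 with quantile normalization and ran from -0.46 to 0.12 with 1 library left out. The log2 fold change of TAPBP stayed between -1.39 and -0.95 over its 19 alternatives, with adjusted p-values from 0.00298 to 0.170. The cause of these changes was not tested. TAP2, HLA-F and NLRC5 had at most 40, 76 and 13 reads in a library, which limits the precision of their values.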
